A study of Mus musculus with 2 samples.

Results

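The Ly6c2 Chil3 Plac8 monocytes are cells of MC38 tumours, named after genes of the inflammatory kind of blood monocyte. How recently these cells entered the tumours was not measured. They were picked barcode by barcode from the counts of UMIs (unique molecular identifiers, each standing for 1 captured RNA molecule). A barcode had to hold at least 200 genes and at most 20% mitochondrial UMIs. It then needed 3 or more UMIs of Ly6c2, Chil3 and Plac8 together, and at least 0.2% of its UMIs from Lyz2, Ctss and Cd68. It could have at most 2 UMIs of the complement genes C1qa, C1qb and C1qc, at most 2 of Cd3d, Cd3e, Cd3g and Nkg7, and at most 1 of Igf2bp2, Igf2bp3 and Hmga2, which mark the tumour cells. The rule found 838 cells among 16508 barcodes, 372 in the SHP099 library and 466 in the control library, or 5.29% of the 15852 barcodes that passed the filters. The 16 genes of the rule chose these cells, so their levels are given as a description only.

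The study asked how tumours differ after inhibition of SHP2, the phosphatase encoded by Ptpn11, which links growth factor receptors to RAS and ERK. C57BL/6 mice carried flank tumours grown from MC38, a mouse colon carcinoma line, and treatment began 5 days after injection. The first group received SHP099 hydrochloride, an allosteric SHP2 inhibitor, daily for 14 days, each dose of 5 mg/kg going into the stomach. The second received PBS over the same time, and one label calls these mice untreated. Each group had 6 mice and gave 1 library, and the sources used here give neither the number of tumours behind a library nor the sex or age of the mice.

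Classical monocytes leave the bone marrow through the chemokine receptor CCR2, carry the surface protein Ly6C, and enter tissues under inflammation. In tumours they lose these markers as they turn into macrophages, which gain complement C1q, apolipoprotein E and lysosomal genes, or into cells that present antigen. A second blood subset, the non-classical or patrolling monocyte, depends on the nuclear receptor Nr4a1 and carries much of the fractalkine receptor Cx3cr1. Interferons strongly change the programme of monocytes, and SHP2 itself works in cytokine and growth factor signalling in these cells.

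With 1 library per group, no difference below has a replicate check. The intervals are 95% intervals for counting error only, cells of 1 library are not replicates, and no test was run. The SHP099 library held 8263 barcodes with 112901642 UMIs and the control library 8245 with 126218180 UMIs. The monocytes were shallow, with a median of 2736 UMIs per cell in SHP099 and 2696.5 in control, and together 1098306 and 1370659 UMIs. Their mitochondrial share was 2.43% of UMIs in SHP099 and 2.38% in control. Levels are CPM, the UMIs of a gene per 1000000 UMIs of the monocytes of that library. The same 100 barcode sequences occur in both libraries, 6 of them among SHP099 monocytes and 7 among control monocytes, and results without them are given in the closing section.

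The label was read against 5 markers, 3 of which the rule itself used, so their presence is no check of it. Plac8, a small lysosomal protein gene, was found in 98.1% of SHP099 and 97.0% of control members, and Ly6c2 in 86.3% and 89.1%. Chil3, which encodes the chitinase-like protein Ym1, was found in 38.7% and 30.9%. All 3 genes were present in 129 SHP099 cells (34.7%) and 137 control cells (29.4%), and only 1 of the 3 in 43 and 58 cells. The other 2, Ifitm6 and Clec4e, played no part in the rule, and each was found in a minority of members. Ifitm6, an interferon-induced transmembrane family member, was found in 36.0% of SHP099 and 31.3% of control cells, and Clec4e, the mycobacterial receptor Mincle, in 36.0% and 33.9%. After every cell was thinned to 1500 UMIs, which left out 21 SHP099 and 38 control monocytes, these shares were 26.5% and 24.5% for Ifitm6 and 26.8% and 21.96% for Clec4e. T cells served as background and had median depths of 2357 UMIs in SHP099 and 2643 in control. They had 0 of 291 and 0 of 434 thinned cells with either gene, which allows up to 1.03% and 0.691%.

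Few cells lay at the monocyte gene edge of the rule, and more lay at its C1q edge. Exactly 3 UMIs of the monocyte genes were held by 11 SHP099 and 12 control members, and exactly 2, just outside, by 9 and 21 cells that met the other limits. Exactly 2 C1q UMIs were held by 33 SHP099 and 22 control members, and exactly 3, just outside, by 18 and 14 cells. In T cells, 28.4% of the SHP099 and 21.9% of the control barcodes had at least 1 C1q UMI, but only 1.95% and 1.84% had 3 or more. The median member held 27 UMIs of the monocyte genes in SHP099 and 22 in control.

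Most other cell types left little RNA in the gate, but macrophage markers and some matrix genes were present. Of the 12 neutrophil markers, 7 were detected in SHP099 and 10 in control, at a summed 281 and 348 CPM, most of it from Il1r2 and Trem1. Retnlg and Ly6g were at 0 in both libraries and Cxcr2 at 0 and 1 UMI. S100a8 had 7 UMIs in SHP099 and 23 in control, and S100a9 had 0 in SHP099 and 19 in control, all from 1 cell. Of 13 T and NK cell markers, 8 and 9 were detected, at 11.8 and 21.2 CPM, with Ncr1 and Gzma at 0 in both. Of 7 B and plasma cell markers, 4 and 2 were detected, at 12.7 and 5.11 CPM, with Jchain and Mzb1 at 0. Of 9 conventional dendritic cell markers, 8 and 7 were detected, at 84.7 and 73.0 CPM, with Xcr1 at 0 and most of it from Cd209a. Of 8 plasmacytoid dendritic cell markers, 5 and 8 were detected, at 1050 and 996 CPM, most of it from Bst2, which monocytes also make. Siglech, the defining gene, was at 0 in SHP099 and came from 1 cell in control. The 9 macrophage markers were all detected, at 6524 and 5577 CPM, most of it from Apoe. The 9 MC38 markers summed to 322 and 396 CPM, with 7 detected in each library and Krt8 and Krt18 at 0. The matrix genes in that list were not free of signal: Col3a1 was found in 23.9% of SHP099 and 21.03% of control monocytes. Of 6 fibroblast markers, 6 and 5 were detected, at 174 and 163 CPM. Of 5 endothelial markers, 3 and 2 were detected, at 17.3 and 24.1 CPM, and of 5 erythroid markers 3 and 2, at 19.1 and 2.92 CPM. The part of these cells in the results below was not tested.

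Monocytes were a smaller share of the SHP099 library as the rule counts them. They made up 4.71% of its filtered barcodes (interval 4.25 to 5.20%), against 5.86% in control (5.35 to 6.40%), giving a ratio of 0.804 (interval 0.699 to 0.923). Among phagocytes, the barcodes that met the Lyz2, T cell and tumour limits, they were 372 of 2760 in SHP099 (13.5%) and 466 of 2692 in control (17.3%), giving a ratio of 0.779 (interval 0.678 to 0.894). Phagocytes with 3 or more UMIs of both the monocyte genes and C1q, the cells in between, were more frequent, at 20.5% of SHP099 and 16.5% of control phagocytes, giving a ratio of 1.25 (interval 1.10 to 1.41). Monocytes and in-between cells, added up, were 11.9% of SHP099 and 11.4% of control barcodes, giving a ratio of 1.04 (interval 0.947 to 1.14). The share of monocytes among these was 39.6% in SHP099 and 51.2% in control. In-between cells were deeper than monocytes, with medians of 4501 UMIs in SHP099 and 4174 in control, and depth sets how often a UMI limit is crossed. When the rule was applied after thinning every barcode to 1500 UMIs, the ratio among phagocytes was 0.855 (interval 0.740 to 0.988) and that of filtered barcodes 0.878, whose interval of 0.760 to 1.01 includes 1. The part of free C1q RNA in these shares was not tested.

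The members were not uniform. Those with 21 or more UMIs of the monocyte genes numbered 234 in SHP099 (62.9%, interval 57.8 to 67.8%) and 250 in control (53.6%, 49.0 to 58.2%). The interval of that ratio, 0.977 to 1.41, includes 1, but it was made for rare counts and is too wide for shares this large. The median depth of the members with 21 or more was close to that of the members with 20 or fewer. It was 2736 against 2738 UMIs in SHP099 and 2748 against 2613 in control. The richer cells held more of Hp, which encodes the haemoglobin-binding protein haptoglobin, at 219 CPM in SHP099 and 193 CPM in control, where the poorer cells had 27.5 and 30.7 CPM. Ifitm6 followed the same order, at 424 and 447 CPM against 120 and 87.5 CPM. The poorer cells held more of the macrophage genes Apoe, at 8649 CPM in SHP099 and 7185 CPM in control, against 4614 and 3340 CPM in the richer ones, and of Spp1, at 1209 and 1072 CPM against 346 and 352 CPM. Arg1, which breaks down arginine, was at 914 and 1069 CPM against 492 and 490 CPM. These orders were the same in both libraries.

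MHC class II genes split the members further. In 1500 UMIs per cell, the class II list (H2-Aa, H2-Ab1, H2-Eb1, Cd74 and their helpers) had a median of 7 UMIs in SHP099 and 9 in control, with quartiles of 1 and 45 UMIs in SHP099 and 1 and 48 in control. At most 2 such UMIs were found in 35.3% of SHP099 and 36.4% of control cells, and 20 or more in 39.0% and 40.4%. Cells rich in monocyte genes were class II poor more often, with at most 2 UMIs in 44.0% of them in SHP099 and 47.8% in control, against 18.5% and 21.3% of the cells with fewer monocyte gene UMIs. Class II therefore differed among the monocytes of each library and by little between the libraries. The list median was 0.00 on the log2 scale, with none of its 7 measured genes past 1.5-fold. Over the same genes it was 0.11 in the cells rich in monocyte genes and 0.11 in the others, each taken alone. H2-Ab1, the beta chain of I-A, was at 3430 CPM in SHP099 and 3604 CPM in control, and Cd74, the invariant chain, at 10029 and 10013 CPM. H2-Eb1, the beta chain of I-E, was at 2110 CPM in SHP099 and 2386 CPM in control.

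Next to C1q macrophages, phagocytes with 10 or more C1q UMIs and at most 2 monocyte gene UMIs (1674 in SHP099 and 1585 in control), the monocytes held more of Hp and Slpi and less of Ccl8 and Vcam1. This contrast is the one the rule was built on, so it describes the cells and supports nothing further. Of 2463 genes measured in both libraries, 5.24% were at least 2-fold higher in monocytes in both libraries and 3.82% at least 2-fold lower. Leaving out the genes of the rule, the gene with the largest ratio was Hp, at 149 CPM in SHP099 and 116 CPM in control monocytes, against 1.35 and 1.31 CPM in the macrophages. Slpi, a secreted inhibitor of leukocyte proteases, was at 237 and 211 CPM in monocytes, against 3.04 and 5.94 CPM in macrophages. Mcemp1, Clec4e, Ly6i, Gpr141, the coagulation factor gene F10, Tppp3, Ifitm1, Ccr2 and Lsp1 completed the 12 largest together with Ifitm6. The smallest ratio was that of Ccl8, a chemokine that draws monocytes and lymphocytes, at 10.9 and 16.1 CPM in monocytes, against 800 and 1250 CPM in macrophages. Vcam1, Olfml3, Cd81, Ms4a7, Zmynd15, Acp5, Pf4, Cd72, Stmn1, Ccl12 and Cd63 were the other genes of the 12 smallest. Of the 25 measured macrophage maturation genes, 18 were at least 2-fold lower than in macrophages in both libraries, and of the 19 measured classical monocyte genes 10 were at least 2-fold higher.

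Ifitm6, Hp and Clec4e were lower at each step from the richest monocytes through the in-between cells to the macrophages, in both libraries. Not every gene of the 12 largest did so: Ifitm1 was at 719 CPM in SHP099 and 1250 CPM in control in the poorer monocytes, against 509 and 744 CPM in the richer ones. Hp was at 9.36 CPM in SHP099 and 8.73 CPM in control in-between cells. Ccr2 was lower at each step too, at 371 CPM in SHP099 and 233 CPM in control in-between cells, and at 97.5 and 36.6 CPM in macrophages. At each of these steps it stood higher in SHP099 than in control, as did Cx3cr1, Ccl12 and Ifit1.

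**Figure D1:**
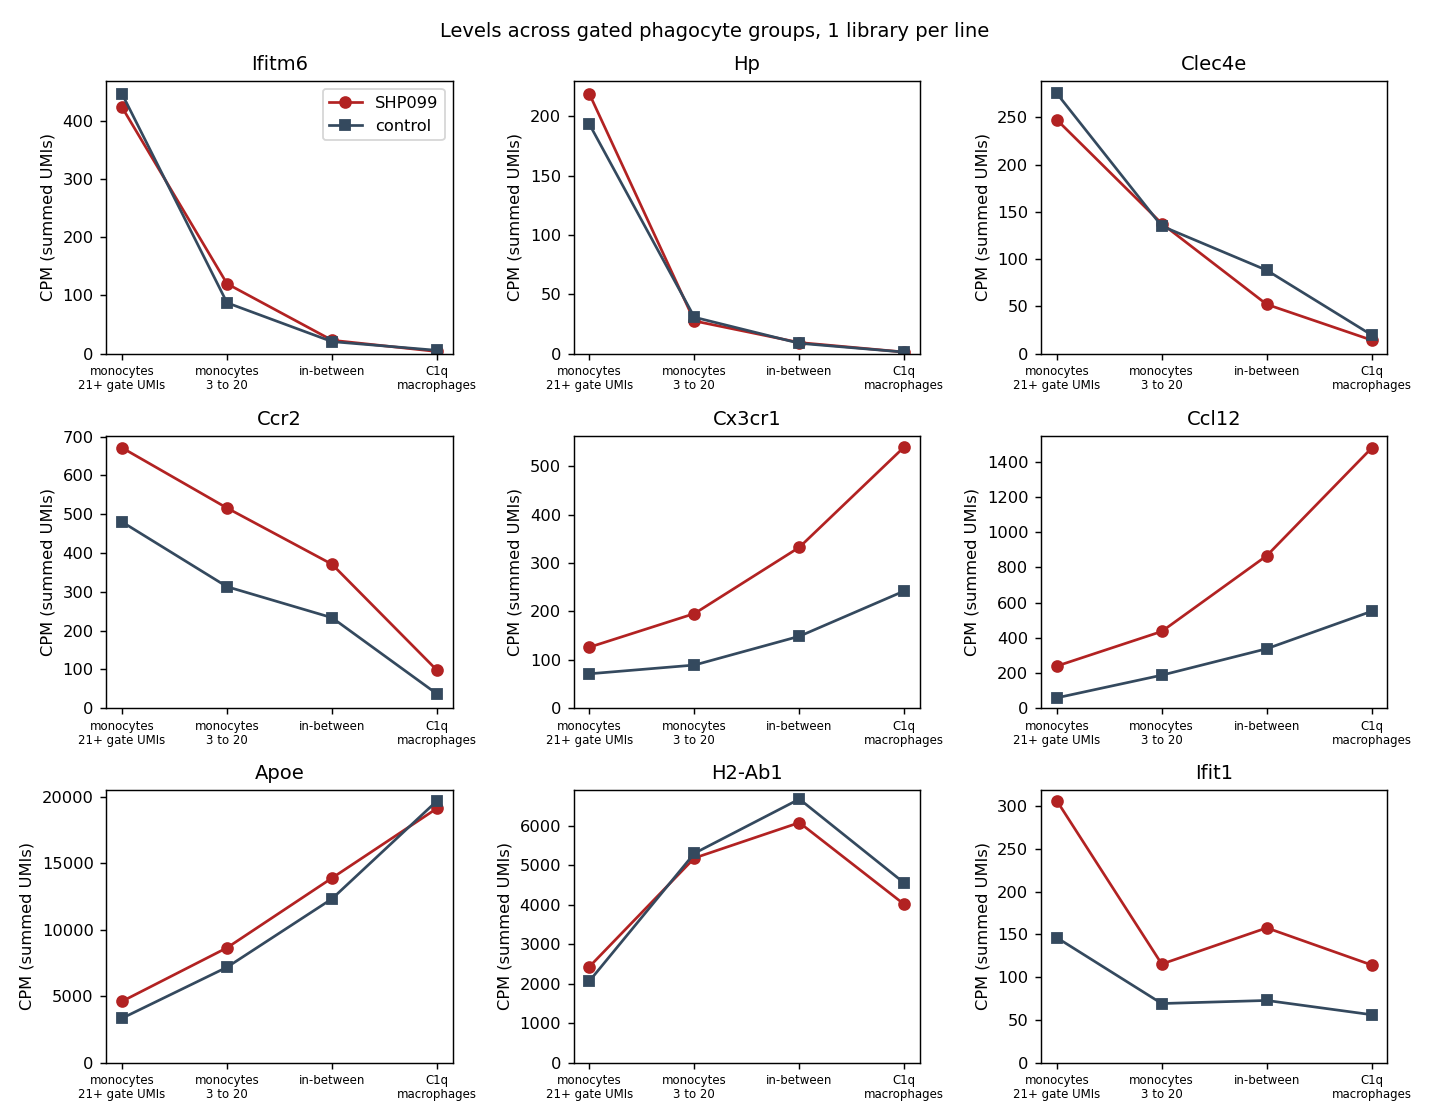
Levels of 9 genes (vertical axes, CPM from summed UMIs) in 4 gated groups ordered from monocytes with 21 or more gate UMIs to C1q macrophages (horizontal axes), with red circles for the SHP099 library and dark squares for the control library. Ifitm6, Hp and Clec4e drop along the groups in both libraries, while Ccr2, Cx3cr1, Ccl12 and Ifit1 lie higher in SHP099 in all 4 groups, with Ccr2 at 671 CPM in SHP099 and 480 CPM in control in the richest monocytes.

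Between the libraries, most genes of the monocytes were at similar levels. Of 2534 genes at 50 CPM or more in 1 of the libraries, 3.63% were at least 1.5-fold higher in SHP099 and 3.71% at least 1.5-fold lower, together 7.34%, and the median log2 ratio was 0.03. Among these genes, 1393 had a log2 ratio above 0 and 1141 below 0. Ratios are SHP099 over control with 0.5 CPM added to both levels, and log2 intervals come from the counts alone. The 2 labelling markers outside the rule had intervals that include 0. Ifitm6 was at 313 CPM in SHP099 and 276 CPM in control (log2 ratio 0.18, interval -0.03 to 0.40), and Clec4e at 208 and 209 CPM (-0.01, interval -0.26 to 0.25). Other genes of the monocyte profile were further apart, with Ifitm1 at 585 CPM in SHP099 and 985 CPM in control, Ly6i at 438 and 611 CPM and F10 at 120 and 177 CPM. Ly6i is a near copy of Ly6c2, so reads may be split between them. Of the rule's own genes, Ly6c2 was at 3350 and 3191 CPM, Plac8 at 6665 and 5908 CPM and Chil3 at 597 and 498 CPM. Ptpn11, the target of SHP099, had 29 UMIs in each library, 26.4 CPM in SHP099 and 21.2 CPM in control. An inhibitor of the protein need not change its RNA. Ptpn6, which encodes the related phosphatase SHP1, was at 188 and 147 CPM (0.35, interval 0.06 to 0.64).

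Genes that answer to type I interferon stood higher in SHP099 than in control. Of 50 measured members of the list, 17 lay 1.5-fold or more above control and none as far below, where 3.63% of all measured genes lay above, and 47 had a log2 ratio above 0. The list median was 0.48, beside 0.03 over all measured genes, while the summed level of the list, set by its most abundant genes, was 28320 CPM in SHP099 and 24464 CPM in control (0.21, interval 0.19 to 0.23). The median was 0.44 in the cells with 21 or more monocyte gene UMIs and 0.25 in the others. Ifit1, which binds viral RNA lacking the host cap mark (GRCm38 chr19:34640871-34650009), had 260 UMIs in SHP099 and 150 in control, 237 and 109 CPM (log2 ratio 1.11, interval 0.82 to 1.41). Rsad2, the antiviral enzyme viperin (chr12:26442746-26456452), was at 322 CPM in SHP099 and 187 CPM in control (0.79, interval 0.55 to 1.02). Within the members with 20 or fewer monocyte gene UMIs, however, Rsad2 was at 125 CPM in SHP099 and 153 CPM in control, against 435 and 217 CPM in the richer cells. Trim30a, a ubiquitin ligase family member that restrains inflammatory signalling, was at 320 and 182 CPM (0.81, interval 0.58 to 1.05), and higher in both kinds of monocyte.

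The ratios in the list ran widely. Ifit1bl1 had the largest, at 56.5 CPM in SHP099 and 14.6 CPM in control (1.92, interval 1.20 to 2.76), followed by Ifit3b at 1.42 and Ifit2 at 1.17. Ifit1bl1 and Ifit3b share much sequence with Ifit1 and Ifit3, and the Oas1, Phf11 and Trim30 genes are multigene families too, so reads may be split between copies. The smallest were those of Irf9 at -0.22, Sp140 at -0.15 and Zbp1 at -0.12, with intervals that include 0. Isg15, a ubiquitin-like protein and among the most abundant members, was at 1019 CPM in SHP099 and 974 CPM in control (0.06, interval -0.05 to 0.18). Irf7, the master factor of interferon production, was at 748 and 573 CPM (0.39, interval 0.24 to 0.53). Ifitm3, the most abundant of the list named here, was at 7360 CPM in SHP099 and 7209 CPM in control. Families did not move as one, since the Oas genes had ratios of 0.79 for Oas1a, 0.41 for Oas3 and 0.14 for Oasl2.

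Cell by cell, the list was higher in SHP099 at each quantile computed. In 1500 UMIs per cell, its members without genes of the rule had a median of 40 UMIs in SHP099 (351 cells) and 37 in control (428 cells), with 90th percentiles of 73 and 66.3 and 10th percentiles of 20 and 17. At that depth Ifit1 was detected in 17.4% of SHP099 monocytes (interval 13.6 to 21.8%) and 11.7% of control monocytes (8.80 to 15.1%), or 23.9% and 16.1% without thinning. T cells, which also respond to interferon, had 9.97% and 6.22%. Trim30a was detected in 38.5% (interval 33.3 to 43.8%) and 21.03% (17.3 to 25.2%), or 54.3% and 34.8% without thinning, and in 26.1% of SHP099 and 14.5% of control T cells.

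Promoters of genes with the largest ratios are printed to show which hold letters with the spacing of an interferon element next to their start. Sequences are those of RefSeq on GRCm38.p6, the 250 bases before the annotated start, 5′ to 3′ on the strand of the gene. Capitals mark GAAA, 2 bases of any kind and GAAA again, the spacing of an interferon-stimulated response element. Its reverse complement, with TTTC in both places, was searched too, and matches may overlap each other. The RefSeq start can differ from the gene ends given above. They are Ifit1 (chr19:34640639-34640888, plus strand), Ifit3 (chr19:34583279-34583528, plus), Rsad2 (chr12:26456453-26456702, minus), Oas1a (chr5:120907526-120907775, minus), Ccl12 (chr11:82101595-82101844, plus) and Cx3cr1 (chr9:120068297-120068546, minus).
Ifit1: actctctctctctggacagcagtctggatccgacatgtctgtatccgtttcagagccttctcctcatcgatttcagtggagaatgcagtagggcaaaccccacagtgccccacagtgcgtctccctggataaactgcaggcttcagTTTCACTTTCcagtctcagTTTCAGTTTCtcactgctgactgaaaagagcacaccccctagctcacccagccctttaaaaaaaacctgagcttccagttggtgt
Ifit3: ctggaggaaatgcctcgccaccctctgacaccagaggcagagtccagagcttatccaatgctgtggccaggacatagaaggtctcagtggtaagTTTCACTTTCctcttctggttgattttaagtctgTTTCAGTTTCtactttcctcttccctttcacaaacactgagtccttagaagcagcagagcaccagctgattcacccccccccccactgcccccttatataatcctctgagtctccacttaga
Rsad2: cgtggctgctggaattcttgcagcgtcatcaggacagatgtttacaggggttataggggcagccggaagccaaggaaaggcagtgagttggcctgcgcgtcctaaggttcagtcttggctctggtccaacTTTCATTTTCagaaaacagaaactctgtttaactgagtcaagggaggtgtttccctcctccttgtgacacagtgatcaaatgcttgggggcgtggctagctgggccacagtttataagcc
Oas1a: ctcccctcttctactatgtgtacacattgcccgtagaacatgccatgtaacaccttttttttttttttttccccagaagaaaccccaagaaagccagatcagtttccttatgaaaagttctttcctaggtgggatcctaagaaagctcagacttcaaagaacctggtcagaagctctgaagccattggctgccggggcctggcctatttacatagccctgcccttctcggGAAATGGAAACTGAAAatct
Ccl12: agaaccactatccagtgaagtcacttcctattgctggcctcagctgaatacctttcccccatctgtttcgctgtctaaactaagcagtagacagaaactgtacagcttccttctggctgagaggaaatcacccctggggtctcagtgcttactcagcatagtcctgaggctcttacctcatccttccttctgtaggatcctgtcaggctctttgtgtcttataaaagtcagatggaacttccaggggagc
Cx3cr1: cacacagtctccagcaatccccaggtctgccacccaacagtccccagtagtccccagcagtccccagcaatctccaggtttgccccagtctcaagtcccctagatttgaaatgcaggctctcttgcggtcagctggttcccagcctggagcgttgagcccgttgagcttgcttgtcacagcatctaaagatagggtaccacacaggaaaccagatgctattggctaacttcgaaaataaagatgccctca
Matches began 104 and 85 bases before the start in Ifit1 (positions -104 and -85), at -156 and -122 in Ifit3, at -120 in Rsad2, and at -20 and -14 in Oas1a, where they overlap. In Ccl12 and Cx3cr1 these letters were not in the window. Of the 12 genes with the largest ratios, 11 had an entry and 6 held a match, and of the 12 with the smallest ratios 9 had an entry and 0 held one. The share was 3.46% over 27025 genes with a promoter in the table and 5.57% over 2010 measured genes of the monocytes. Of the 41 measured interferon list members with an entry, 20 held a match, and of the 15 among them at least 1.5-fold higher, 10 did. A match describes letters only, and whether it acts in these cells was not tested. The 12 largest and 12 smallest were picked by their ratios in these data, and 7 of the 12 largest are in the interferon list.

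The 12 largest ratios included 7 members of the interferon list: Ifit1, Phf11d, Gbp7, Trim30a, Oas1a, Rsad2 and Ifit3. The other genes were Ccl12, Fam111a, a protease gene known for restricting viruses, Cx3cr1, Morc3, a chromatin regulator, and Ccnd2, a G1 cyclin. Ccl12 (chr11:82101845-82103400), the mouse chemokine that attracts monocytes through CCR2, had the largest ratio under the naming rule, which asks for 100 CPM, at 310 CPM in SHP099 and 120 CPM in control (log2 ratio 1.37, interval 1.10 to 1.65). It was detected in 14.5% of SHP099 monocytes and 7.71% of control monocytes at 1500 UMIs, or 20.2% and 13.1% without thinning, and in 1.03% and 0.691% of T cells. Fam111a was at 136 CPM in SHP099 and 69.3 CPM in control, and Ccnd2 at 177 and 101 CPM.

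Receptors that place monocytes in tissue tended to be higher. Over the 16 measured chemokine and homing receptors the median was 0.18, and 3 were past 1.5-fold, all higher, where 3.63% of all measured genes were. Cx3cr1 (chr9:119901616-120069879) was at 151 CPM in SHP099 and 79.5 CPM in control (0.92, interval 0.57 to 1.29), and was higher in both the richer and the poorer cells. At 1500 UMIs it was detected in 17.7% and 10.3% of monocytes, or 28.5% and 16.1% without thinning, and in 4.47% and 4.84% of T cells. Ccr2 (chr9:124101950-124113557) was at 615 and 401 CPM (0.62, interval 0.45 to 0.78), and was detected in 53.3% and 41.6% of thinned monocytes, or 69.6% and 56.7% of all, against 10.7% and 9.22% of T cells. Itga4, the alpha chain of the integrin VLA-4, was at 57.4 CPM in SHP099 and 35.0 CPM in control (0.70, interval 0.15 to 1.28). Ccr1, a receptor of inflammatory chemokines, was at 270 CPM in SHP099 and 261 CPM in control, with an interval that includes 0. Cxcr4, which holds cells in the bone marrow, was at 168 CPM in SHP099 and 201 CPM in control (-0.26, interval -0.54 to 0.01).

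Only 6 of the 20 non-classical genes were measured. Their median was 0.28, with 5 of 6 above 0. Past 1.5-fold were 2, Cx3cr1 and Itga4, both higher, where 3.63% of all measured genes were. The whole list summed to 4409 CPM in SHP099 and 3603 CPM in control, most of it from Cebpb. The sum therefore says little about the other members. Cebpb was at 3889 CPM in SHP099 and 3429 CPM in control in the cells rich in monocyte genes. In the poorer cells it was at 2639 and 2128 CPM, and in C1q macrophages at 987 and 999 CPM. Ace, Spn and Treml4 were too low to compare, with 14 UMIs of Ace in SHP099 and 19 in control, 8 and 11 of Spn, and 13 and 11 of Treml4. Nr4a1 was at 475 CPM in SHP099 and 392 CPM in control (0.28, interval 0.10 to 0.46). Of the classical list, 20 of 22 genes were measured, and 3 were past 1.5-fold, all higher, where 3.63% of all measured genes were. Besides Ccr2 and Itga4 the third was F13a1, the coagulation factor XIII gene, at 127 and 83.2 CPM (0.61, interval 0.25 to 0.99). Ms4a4c was at 1517 and 1083 CPM (0.49, interval 0.38 to 0.59), and the galectin gene Lgals3 was lower, at 1838 CPM in SHP099 and 2675 CPM in control (-0.54, interval -0.62 to -0.46).

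Chemokines made by the monocytes went both ways. Of 14 measured genes, 1 was at least 1.5-fold higher and 4 at least 1.5-fold lower, where 3.63% and 3.71% of all measured genes were. The list median was -0.18. The CCR2 ligands Ccl2 and Ccl7 joined Ccl12 on the higher side, with Ccl2 at 812 CPM in SHP099 and 652 CPM in control (0.32, interval 0.18 to 0.45) and Ccl7 at 232 and 157 CPM (0.56, interval 0.30 to 0.83). Ccl2 differed among the members: in the cells with 21 or more monocyte gene UMIs it was at 1037 and 676 CPM, and in the others at 418 and 624 CPM. The neutrophil attractants were lower, with Cxcl2 at 2272 and 3468 CPM (-0.61, interval -0.68 to -0.54) and Cxcl1 at 71.9 and 142 CPM (-0.98, interval -1.38 to -0.60). Cxcl1 in the cells with 20 or fewer monocyte gene UMIs was at 72.6 CPM in SHP099 and 218 CPM in control, against 71.5 and 73.7 CPM in the richer cells. The macrophage inflammatory proteins Ccl3, at 130 and 199 CPM (-0.61), and Ccl4, at 486 and 657 CPM (-0.43), were lower as well, while in C1q macrophages their log2 ratios were 0.72 and 0.82. Pf4, a platelet chemokine that macrophages also make (chr5:90772435-90773383), was at 81.9 and 215 CPM (-1.39, interval -1.75 to -1.05), and its UMIs lay in 7.80% of SHP099 and 12.4% of control cells. Most of them were in the cells with 20 or fewer monocyte gene UMIs, at 198 and 428 CPM, while the richer cells had 15.7 and 22.3 CPM. Ccl5, a T cell attractant, was at 780 and 810 CPM (-0.05, interval -0.18 to 0.08), while in C1q macrophages it was at 625 CPM in SHP099 and 1538 CPM in control.

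The list of genes answering to interferon-gamma did not follow the type I list. Of 20 measured, 3 were past 1.5-fold, all lower, where 3.71% of all measured genes lay that far below, and the list median was -0.19. Those 3 were Socs1, a brake on cytokine signalling, at 39.2 CPM in SHP099 and 98.5 CPM in control (-1.32, interval -1.86 to -0.83), the GTPase gene Gbp2 at 240 and 392 CPM (-0.70, interval -0.92 to -0.49), and Cd274, which encodes PD-L1, at 73.7 and 120 CPM (-0.69, interval -1.10 to -0.31). At 1500 UMIs, Gbp2 was detected in 21.9% of SHP099 and 36.0% of control monocytes, or 32.5% and 51.3% without thinning, with 8.59% and 6.68% of T cells. Cxcl9 was at 222 CPM in SHP099 and 321 CPM in control (-0.53, interval -0.76 to -0.30), and Irf1 at 110 and 152 CPM (-0.46, interval -0.80 to -0.13). Cxcl10, which type I interferon also induces, was at 750 and 562 CPM (0.42, interval 0.27 to 0.56). Which list a gene went into was a choice: Gbp7, of the same family as Gbp2, was in the type I list with a log2 ratio of 0.82. Nos2, the inducible nitric oxide synthase, had 1 UMI in SHP099 and 24 in control, a level ratio of 0.0520 with a log2 interval of -9.63 to -1.65. MHC class I genes had a median of -0.16 over 16 measured genes, 14 of them below 0, and summed to 16705 CPM in SHP099 and 20357 CPM in control. B2m, the light chain, was at 9235 CPM in SHP099 and 11754 CPM in control (-0.35, interval -0.38 to -0.31). H2-Q7 and H2-Q6, non-classical class I genes that resemble each other, were past 1.5-fold, at 168 and 298 CPM and at 81.0 and 124 CPM.

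**Figure D2:**
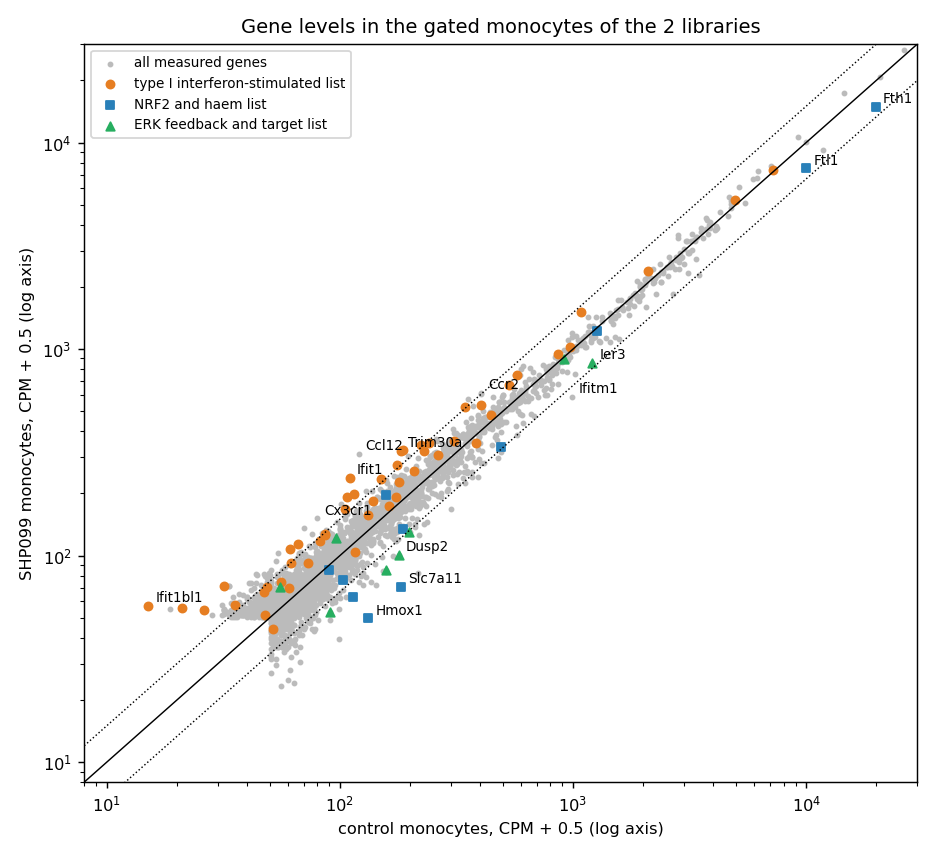
Level of each measured gene in SHP099 monocytes (vertical axis) against control monocytes (horizontal axis), in CPM plus 0.5 on log axes, with a solid line for equal levels and dotted lines at 1.5-fold. Interferon-stimulated genes (orange) lie mostly above the solid line, Ifit1 at 237 CPM in SHP099 and 109 CPM in control among them, and NRF2 and haem genes (blue) mostly below it. Genes to the left of 50 CPM were kept because the SHP099 level reached that minimum.

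Most measured genes of oxidant defence, iron storage and haem breakdown were lower in SHP099 monocytes, though not all by much. Of 11 measured genes in that list, 10 had a ratio below 0 and 3 were past 1.5-fold, all lower, where 3.71% of all measured genes were, and the median was -0.44. Hmox1, the haem oxygenase (chr8:75093621-75100589), was at 49.2 CPM in SHP099 and 131 CPM in control (-1.41, interval -1.88 to -0.97), the smallest ratio under the naming rule. Its detection at 1500 UMIs was 3.70% (interval 1.99 to 6.25%) in SHP099 and 13.3% (10.2 to 16.9%) in control, or 10.2% and 21.2% without thinning, against 1.03% and 0.691% in T cells. Slc7a11, the cystine importer that feeds glutathione synthesis (chr3:49892526-50443614), was at 70.1 and 182 CPM (-1.37, interval -1.77 to -1.01). The metallothionein gene Mt2 was at 62.8 and 114 CPM (-0.85, interval -1.29 to -0.44) and Mt1 at 333 and 488 CPM (-0.55, interval -0.74 to -0.36). The ferritin chains are among the most abundant RNAs of these cells: Fth1 was at 14875 CPM in SHP099 and 19848 CPM in control (-0.42, interval -0.44 to -0.39) and Ftl1 at 7498 and 10028 CPM (-0.42, interval -0.46 to -0.38). Both have processed copies in the genome that can take some reads. Gsr, the glutathione reductase gene, was the only one with a ratio above 0, at 196 and 158 CPM (0.31, interval 0.03 to 0.59). Prdx1 differed little, at 1299 CPM in SHP099 and 1383 CPM in control in the cells with 21 or more monocyte gene UMIs. In the poorer cells it was at 1072 and 1151 CPM. Txnrd1 was at 83.0 and 111 CPM in the richer cells but at 87.6 and 64.4 CPM in the poorer ones. The whole list summed to 24622 CPM in SHP099 and 32648 CPM in control, most of it from Fth1 and Ftl1. Its UMIs per cell are therefore mostly those of the ferritin chains. Cell by cell, the list had a median of 34 UMIs in SHP099 and 43.5 in control. The 10th percentiles were 18 and 23 and the 90th percentiles 62 and 82.3, so this sum was lower in both low and high cells.

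**Figure D3:**
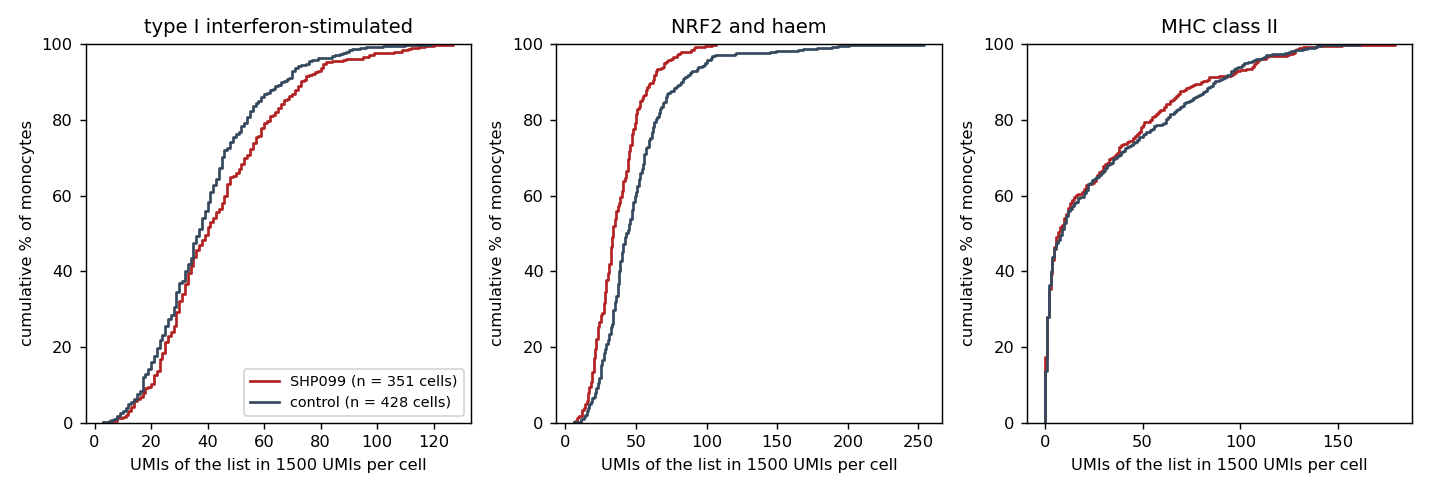
Cumulative share of monocytes (vertical axes, percent) by the UMIs of 3 lists in 1500 UMIs per cell (horizontal axes, genes of the rule left out), with SHP099 in red (351 cells) and control in dark blue (428 cells). The interferon curve of SHP099 lies to the right (medians 40 in SHP099 and 37 in control), the NRF2 and haem curve to the left (34 and 43.5), and the class II curves nearly overlap (7 and 9). Most UMIs of the NRF2 and haem list are those of Fth1 and Ftl1.

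Hypoxia and glycolysis genes were slightly lower together. Of 24 measured, 22 had a ratio below 0, the median was -0.29, and 3 were past 1.5-fold on the lower side, where 3.71% of all measured genes were. Those were Bnip3, a mitophagy receptor, at 126 CPM in SHP099 and 218 CPM in control (-0.79, interval -1.10 to -0.50), Ndrg1 at 36.4 and 63.5 CPM, and the oxidase gene Ero1l at 61.9 and 100.0 CPM. Among glycolytic enzymes, Ldha was at 680 and 860 CPM (-0.34, interval -0.47 to -0.21) and Gapdh at 1844 and 2273 CPM (-0.30, interval -0.38 to -0.22). Hk2, a hexokinase, and Eno1, an enolase, had ratios of 0.13 and 0.02 with intervals that include 0. Arg1 was at 646 CPM in SHP099 and 765 CPM in control (-0.25, interval -0.39 to -0.11), and the cells with 21 or more monocyte gene UMIs showed no such difference, at 492 and 490 CPM.

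Targets and feedback genes of the ERK pathway, on which SHP2 acts, were mixed. Of 20 genes, 8 were measured, the median was -0.55, and 4 were past 1.5-fold, all lower, where 3.71% of all measured genes were. The median was -0.18 in the cells with 21 or more monocyte gene UMIs and -0.37 in the others. Dusp2, a phosphatase that switches off MAP kinases, was at 100 CPM in SHP099 and 178 CPM in control (-0.83, interval -1.17 to -0.50). Phlda1 was at 84.7 and 157 CPM (-0.89, interval -1.26 to -0.53) and Dusp5 at 130 and 198 CPM (-0.60, interval -0.91 to -0.31). Egr1, an early growth response factor, was at 52.8 and 90.5 CPM (-0.77, interval -1.25 to -0.32), but in the cells rich in monocyte genes it was at 52.9 CPM in SHP099 and 45.9 CPM in control. Dusp6, a phosphatase specific for ERK and often read as its output, was at 70.1 and 54.7 CPM (0.35, interval -0.12 to 0.84), and Ccnd1 at 121 and 95.6 CPM (0.34, interval -0.02 to 0.70). Sprouty and Spred genes were below the minimum level. Genes that dissociation of tissue can raise went both ways, with a median of 0.10 over 21 measured genes, Fos at 2129 CPM in SHP099 and 1887 CPM in control and Hsp90aa1 at 381 and 573 CPM, and their part in these results was not tested.

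**Figure D4:**
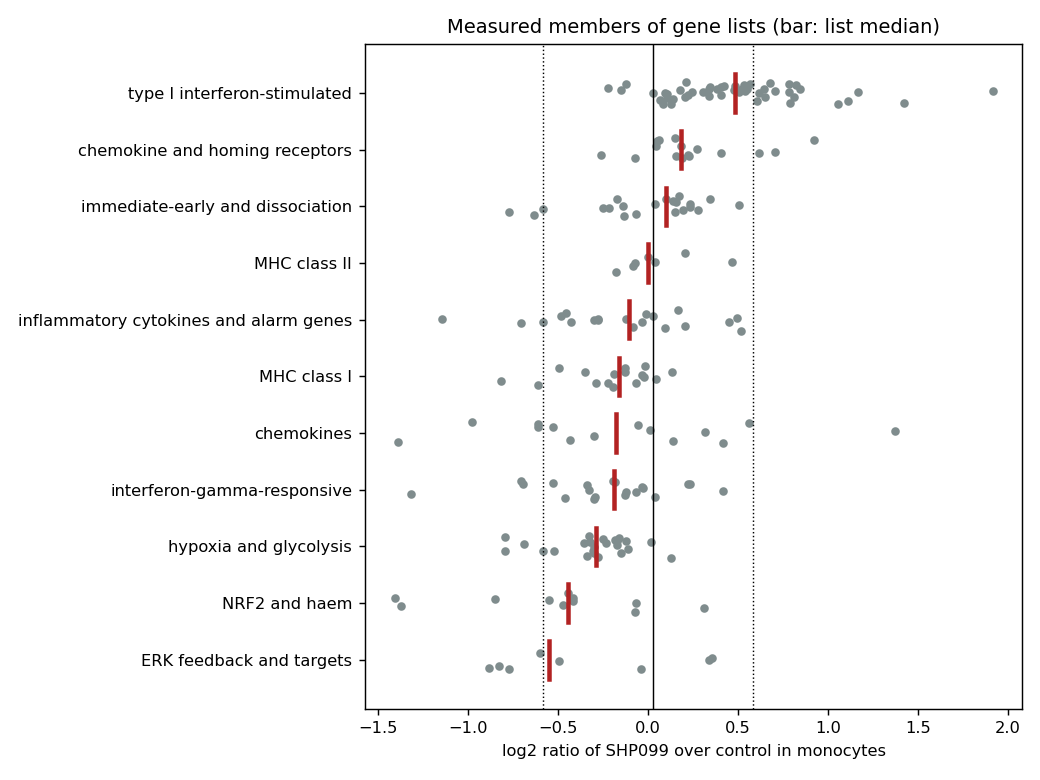
Log2 ratios of SHP099 over control in monocytes (horizontal axis) for the measured members of 11 gene lists (rows, 1 grey point per gene), with a red bar at each list median, a solid line at the median of all measured genes (0.03) and dotted lines at 1.5-fold. The interferon-stimulated list sits to the right (median 0.48), and the NRF2 and haem and ERK lists to the left (-0.44 and -0.55).

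Inflammatory cytokines and alarm genes did not shift as a group, the median over 20 measured genes being -0.10. Past 1.5-fold were 2 of them, both lower, where 3.71% of all measured genes were. Il1b, the chief alarm cytokine of monocytes, was at 2104 CPM in SHP099 and 2063 CPM in control (0.03, interval -0.05 to 0.11). Tnf was at 30.0 and 67.1 CPM (-1.15, interval -1.78 to -0.57), and Clec4d, the lectin receptor MCL that pairs with Clec4e, at 145 and 236 CPM (-0.71, interval -0.99 to -0.43). Osm, the cytokine oncostatin M, was on the other side, at 532 and 371 CPM (0.52, interval 0.34 to 0.69). The C-type lectin and innate receptor list had a median of 0.01 over 18 measured genes. Lipid and lysosome genes had a median of -0.02 over 17. Of these, 4 were at least 1.5-fold lower and 0 as far higher, where 3.71% and 3.63% of all measured genes were. Among the 4 was the fatty acid carrier gene Fabp5 at 83.8 and 152 CPM. The inhibitory receptor list had a median of 0.12 over 13, the monocyte transcription factor list 0.04 over 23 and the TGF-beta and matrix list -0.06 over 9. Cell division genes were barely present: 3 of 30 mitosis genes were measured, and Mki67 had 4 UMIs in each library. In C1q macrophages of the same libraries Mki67 was at 50.4 CPM in SHP099 and 14.7 CPM in control.

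Most of the genes with the largest differences in monocytes also differed in the same direction in C1q macrophages. All of the 12 largest had ratios above 0 there, and 11 of the 12 smallest had ratios below 0, Dusp2 and Phlda1 with intervals that include 0. How often all measured genes share a direction in both cell groups is not given here, so these counts have no background. The mitochondrial share of the macrophages was 3.39% of UMIs in SHP099 and 2.25% in control, and its part was not tested. Monocytes and macrophages come from the same libraries, so this is no independent check. Ccl12 had a log2 ratio of 1.42 in macrophages and Ifit1 1.02. The macrophage list medians were 0.56 for the type I interferon genes, -0.45 for NRF2 and haem and -0.47 for hypoxia and glycolysis. In monocytes they were 0.48, -0.44 and -0.29. For the ERK list the median was -0.12 over 9 genes in macrophages and -0.55 over 8 in monocytes. Each median covers the genes at 50 CPM or more in that cell group, so the 2 sides do not hold the same genes. The macrophage and monocyte medians rest on 42 and 50 interferon genes, 10 and 11 NRF2 and haem genes, and 20 and 24 hypoxia and glycolysis genes. The monocyte and macrophage ratios were apart for Dusp2, at -0.83 in monocytes (interval -1.17 to -0.50) and -0.12 in macrophages, for Phlda1, at -0.89 and -0.12, and for H2-Q7, at -0.82 and 0.02. Ccr2 had a larger ratio in macrophages, at 1.40, than in monocytes, at 0.62, from far lower levels. Whether any of these ratios differ between the cell groups was not tested, since each rests on 1 library per treatment.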

How the data were processed

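The deposited matrices hold raw UMI counts per gene and barcode for 1 SHP099 and 1 control library, made with Cell Ranger on mm10 (GRCm38) per the submitters' processing notes. The matrix headers give software version 3.1.0, and the sources used here name no gene annotation. Libraries followed the 10x Chromium 3' protocol, with no sort mentioned per the labels. Such counts read the 3' end of a transcript and are not scaled by gene length. Of 31053 features, 71 share a symbol with another.

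Members were found by the stated UMI limits, and doublets were kept. Scrublet in scanpy 1.11.5 called 198 SHP099 and 264 control barcodes (2.51% and 3.32%, where 6.32% and 6.36% were expected), 1 and 3 of them members. UMIs of the members were summed per library and scaled to CPM, with exact Poisson, binomial and conditional binomial intervals from scipy 1.17.1. These cover counting error only. A gene was measured at 50 CPM or more in 1 library and called past a fold of 1.5. Symbols missing from the files were not analysed here. The named genes were the 12 largest and 12 smallest ratios among genes at 100 CPM or more in 1 library, found in at least 10% of its members, with an interval apart from 0, the same direction when each cell counted alike, and a level at least 0.25 of that in all other barcodes. The same number was taken for monocytes against macrophages, with the extreme members of each list and a fixed panel. Genes of the rule, mitochondrial, ribosomal, haemoglobin, immunoglobulin, Y-linked and predicted genes were not named. Genes given as examples beyond these, such as Dusp6, Ldha or Ace, were chosen after their values were seen. T cells, the background for detection, had 3 or more Cd3 UMIs and under 0.2% of Lyz2, Ctss and Cd68. Simulated counts for 2534 genes, with 2-fold changes in some, gave back 98.5% of those changes past 1.5-fold. Of the unchanged genes, 0.60% also passed it. Variation between mice or libraries cannot be estimated from 1 library per group, so the simulation does not check the calls against it. Gene positions are those of GENCODE M21. The members, lists and alternatives were chosen with earlier results of these data known. Tools were Python 3.11.15, numpy 2.4.6, pandas 2.3.3, anndata 0.12.19 and matplotlib 3.10.9.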

Additional observations from a re-analysis of the deposited data

Results flagged for a closer look

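Ccl3, a chemokine that attracts monocytes and T cells, went in opposite directions in the 2 cell groups of the same libraries. In monocytes its log2 ratio of SHP099 over control was -0.61 (130 CPM in SHP099 and 199 CPM in control), and in C1q macrophages it was 0.72 (308 CPM in SHP099 and 187 CPM in control). The difference was not tested, because each treatment has 1 library.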

How the results depend on the processing

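The lower share of monocytes kept its direction in every alternative that could change it, with ratios from 0.759 to 0.878 of filtered barcodes and from 0.735 to 0.855 of phagocytes. With the rule applied after thinning, the interval of the first, 0.760 to 1.01, includes 1. The interferon-stimulated median stayed above 0 throughout but came to 0.37 with members thinned to 1500 UMIs, 0.32 with the rule applied after thinning, 0.38 with no C1q UMIs allowed and 0.25 in members with 20 or fewer monocyte gene UMIs. The hypoxia median moved by less than its counting error in all of them. The interferon-gamma median was -0.31 in thinned members. The class II median was -0.21 with the rule applied after thinning. It was 0.12 in members with 21 or more monocyte gene UMIs and 0.11 in those with 20 or fewer, beside 0.00 in all members together. The inflammatory median was -0.21 at a minimum of 10 CPM. The chemokine median moved under 7 alternatives: it was 0.015 in members with 21 or more monocyte gene UMIs, where it changed sign, -0.53 in those with 20 or fewer, -0.32 with no C1q UMIs, -0.37 at 10 CPM, -0.076 in thinned members, -0.0046 with the rule applied after thinning, and -0.36 with totals free of mitochondrial, ribosomal and haemoglobin genes. Counts of genes past the fold moved too. Higher and lower genes numbered 617 and 612 at a minimum of 10 CPM, 172 and 161 in thinned members, 158 and 151 in members with 21 or more monocyte gene UMIs and 227 and 180 in those with 20 or fewer. They numbered 31 and 36 at 100 CPM and 10 and 9 at 2-fold. The other choices, removing doublets, leaving out barcodes found in both libraries, a limit of 10% mitochondrial UMIs, 5 monocyte gene UMIs, each cell counted alike, centring and a prior of 5 CPM moved none of these results or of the others recomputed, 10 in all, beyond counting error or 1.5 times. Medians of the other lists and the ratios of single genes were not recomputed under them. The members of each UMI class and the barcodes shared by both libraries were alternatives chosen after the data were seen. The cause of these moves was not tested. No paired analysis was possible because each group has 1 library. Members are shallow, so genes under 50 CPM, such as the Sprouty genes, could not be compared.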
